A study of Mus musculus with 6 samples.

Results

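The genes described here carry the symbols of the eukaryotic translation initiation factors of the mouse, abbreviated eIF. Some encode proteins with other roles, such as the eIF4E-binding proteins, and all are called initiation factor genes or factors below. They were taken as every row of the deposited count table whose symbol starts with Eif and a digit from 1 to 6. Left out were the eIF2 alpha kinase genes Eif2ak1 to Eif2ak4 and Eif2s1, the gene of eIF2 alpha itself. That left 50 genes of 22740 in the table, and 47 of them had enough counts to be tested. RNA had been sequenced from B16 cells, a mouse melanoma line labelled BRAFV600E-negative, after 3 days with 1 uM CX-5461 (3 libraries) or with its vehicle DMSO (3 libraries). All 6 libraries came from this line grown in the same serum-containing medium, and nothing in the labels says that replicates were separate cultures, so p-values measure the spread between these samples only. CX-5461 inhibits RNA polymerase I, which transcribes the ribosomal RNA genes.

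Initiation factors bring the small ribosomal subunit, the initiator tRNA and the messenger RNA together and let the large subunit join at the start codon. eIF2 carries the initiator tRNA and is recharged with GTP by eIF2B. eIF3 is a large scaffold on the small subunit, and eIF4F (the cap-binding protein eIF4E, the scaffold eIF4G and the helicase eIF4A) recruits capped messages. In growing and tumour cells, signalling through mTORC1 frees eIF4E from its binding proteins, and phosphorylation of eIF2 lowers general initiation.

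The libraries held 17877481 to 22908309 counts with CX-5461 and 17573990 to 20198979 with DMSO. CX-5461 replicate 2 stood apart from both other CX-5461 libraries along the second component of the expression values, which held 2.83% of the variance, with a score of -15.5 beside 8.49 and 6.91. The 7 melanocytic markers summed to 28253 to 30557 CPM with CX-5461 and 22078 to 22929 CPM with DMSO. The 5 fibroblast markers summed to 30.9 to 34.4 CPM with CX-5461 and 12.5 to 16.5 CPM with DMSO. The 5 leukocyte markers summed to 15.6 to 17.7 CPM with CX-5461 and 11.0 to 11.9 CPM with DMSO, with Cd3e at 0 in every library. The 3 endothelial and 3 keratinocyte markers stayed below 0.3 CPM in sum, with Cdh5, Krt5 and Krt1 at 0 throughout. Mitochondrially encoded transcripts took 2.70% to 3.40% of counts with CX-5461 and 1.70% to 1.84% with DMSO. The part of these differences in the results below was not tested. CPM, the counts of a gene relative to the total of its library, were scaled between libraries by TMM factors, so a change is one relative to other transcripts. In bulk RNA, fewer cells of a type and less RNA per cell cannot be told apart.

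Most initiation factor genes were lower after CX-5461. Of the 47 tested, 34 fell and 6 rose at an adjusted p below 0.05, and the other 7 missed it (edgeR quasi-likelihood test, adjusted over all 12198 tested genes). Among all tested genes 36.5% were called lower, 37.2% higher and 73.7% either way, so the 72.3% of initiation factor genes that fell stood above that background and the 12.8% that rose stood below it. The factors are abundant, with a median of 153 CPM over the 6 libraries against 37.0 CPM for all tested genes. Among the 7865 genes at or above the level of the least abundant tested factor, Eif5a2, the shares were 40.8% lower and 35.7% higher. The median log2 change of the factors was -0.25, and that of all tested genes was -0.0050. Changes were moderate, since 10 of the 47 passed 1.5-fold, or 21.3%, where 32.7% of all tested genes did. Only Eif4g3 among the 47 passed 2-fold.

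The CX-5461 and DMSO libraries did not overlap for 42 of the 47 factors, beside 76.2% of all tested genes. Taken per library as the median log2 ratio of the factors to their DMSO means, the 3 CX-5461 libraries stood at -0.32, -0.23 and -0.28, and the 3 DMSO libraries at -0.014, 0.0011 and 0.013. CX-5461 replicate 2 was thus the nearest to the DMSO libraries. Summed over the 50 genes, the factors took 10485 ± 137 CPM with CX-5461 and 12829 ± 139.7 CPM with DMSO (SD, n = 3 each). Without CX-5461 replicate 2, 7 rose and 35 fell. When the fit was corrected for how long a stretch of genome each gene spans (the gene-span offset), 28 were lower and 8 higher.

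**Figure D1:**
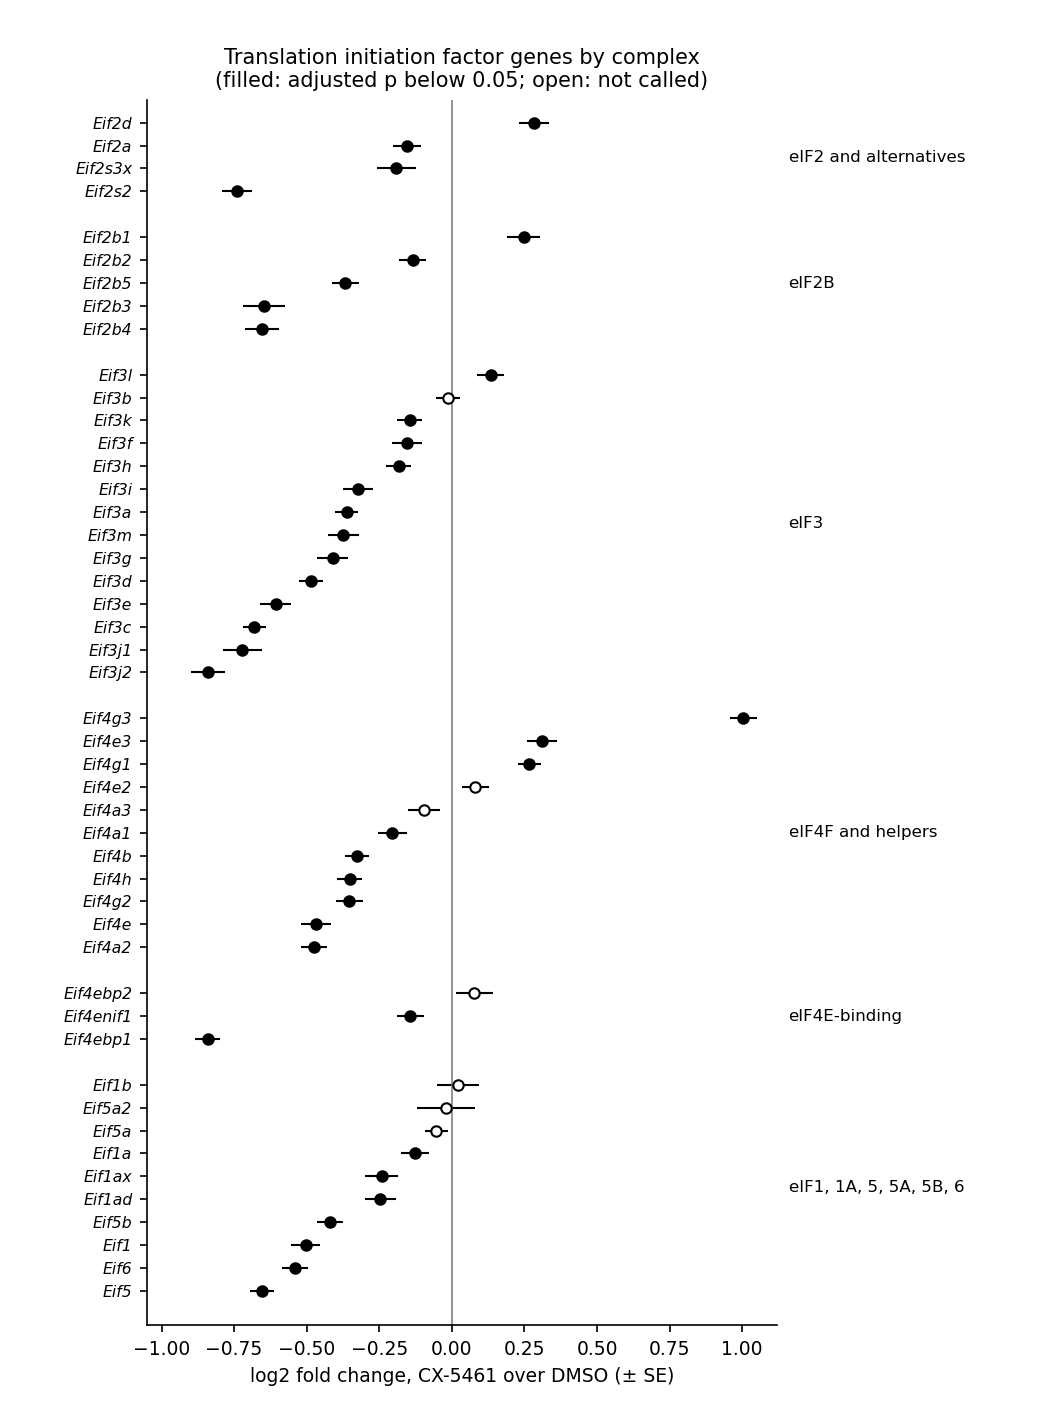
Log2 fold change (CX-5461 over DMSO, ± SE, 3 libraries per group) of the 47 tested initiation factor genes, grouped by complex; filled points passed an adjusted p below 0.05. Most points lie left of 0, with Eif4g3 farthest right at 1.00 and Eif4ebp1 and Eif3j2 farthest left, both at -0.84.

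Some of these counts can be mixed with those of related loci, because how multiply mapped reads were treated is not given in the sources used here. As a measure, the longest coding transcript of each gene was cut into all stretches of 75 bases, and the share found in transcripts of another annotated gene was counted. That share was 87.4% for Eif3j2 (with Eif3j1) and 51.0% for Eif3j1, of which 37.7% of the stretches were found in Eif3j2. It was 62.9% for Eif4a1 (with the pseudogene Eif4a-ps4) and 35.7% for Eif2s3x (with Gm2223). It was 25.6% for Eif1, 22.4% for Eif2s2 and 21.9% for Eif3m, and values of these 7 genes are therefore uncertain. Among the 31 tested genes with at most 5% shared, 20 fell and 5 rose, 6 missed the threshold, and the median was -0.15.

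In the group of eIF2 and factors that can act in its place, 3 of 4 tested genes fell and 1 rose, with a median log2 change of -0.17. The group lacks Eif2s1, the gene of the alpha subunit, which was left out of the set. Of all tested genes 36.5% were called lower and 37.2% higher, the background for this group and each group below. Eif2s2 encodes the beta subunit of eIF2, which contacts eIF5 and eIF2B. Eif2s2 had 133, 149 and 134 CPM with CX-5461, against 224, 232 and 238 CPM with DMSO. Every CX-5461 library lay below every DMSO library, and the fall was 1.67-fold (log2 change, ± SE, -0.74 ± 0.05, adjusted p = 3.39e-09). Eif2s3x, the X-linked gene of the GTP-binding gamma subunit, had 25.3, 25.2 and 27.1 CPM with CX-5461, against 28.9, 29.4 and 30.3 CPM with DMSO. These groups lie side by side without overlap, at log2 change -0.19 ± 0.07, adjusted p = 0.0181, and the call ended without DMSO replicate 3, at -0.18, and with the gene-span offset, at -0.10 (adjusted p from 0.00248 to 0.209 over the alternatives). Eif2s3y, its Y-linked copy, had 0 counts in all 6 libraries, which allows up to 0.135 to 0.173 CPM at a floor of 3 counts that covers counting error only.

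Eif2a and Eif2d are not subunits of eIF2 but separate proteins that can bring a tRNA to the ribosome. Eif2a had 77.9, 76.7 and 78.4 CPM with CX-5461, against 86.1, 83.8 and 89.2 CPM with DMSO. Its lower values with CX-5461 passed the test at log2 change -0.15 ± 0.05, adjusted p = 0.00957, but not with the gene-span offset, at -0.085 (adjusted p from 0.000523 to 0.155 over the alternatives). Eif2d had 89.2, 93.4 and 96.8 CPM with CX-5461, against 75.1, 74.8 and 79.7 CPM with DMSO. Eif2d moved the other way from the remaining genes of the group, log2 change 0.28 ± 0.05, adjusted p = 0.000141, and the 2 groups of libraries did not overlap.

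All 5 subunits of eIF2B, the GTP exchange factor of eIF2, passed the test, 4 lower and 1 higher, with a median of -0.37. Eif2b5 (chromosome 16, 20498817 to 20509323, GRCm38) encodes epsilon, the catalytic subunit. Eif2b5 had 80.6, 85.8 and 82.4 CPM with CX-5461, against 109, 105 and 107 CPM with DMSO. That was a fall of 1.29-fold (log2 change -0.37 ± 0.05, adjusted p = 4.62e-06). Eif2b3, which encodes gamma, the partner of epsilon in the catalytic part, had 20.6, 21.1 and 18.5 CPM with CX-5461, against 32.6, 30.5 and 31.1 CPM with DMSO. Eif2b4 and Eif2b2 encode the regulatory subunits delta and beta. Eif2b4 had 32.1, 32.4 and 33.6 CPM with CX-5461, against 53.6, 50.1 and 50.6 CPM with DMSO. Both Eif2b3 and Eif2b4 fell 1.57-fold, with log2 change -0.65 ± 0.07, adjusted p = 1.06e-06 for Eif2b3 and log2 change -0.65 ± 0.06, adjusted p = 7.27e-08 for Eif2b4, and no CX-5461 library reached the lowest DMSO library in either gene.

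Eif2b1 (chromosome 5, 124570213 to 124579131), the gene of the regulatory alpha subunit that holds the complex together as a dimer, was the eIF2B gene that rose. Eif2b1 had 66.2, 74.7 and 68.7 CPM with CX-5461, against 59.8, 57.4 and 59.1 CPM with DMSO. The groups did not overlap, with log2 change 0.25 ± 0.06, adjusted p = 0.000931. Eif2b2 averaged 85.9 ± 1.34 CPM with CX-5461 and 94.3 ± 2.27 CPM with DMSO (SD, n = 3 each), log2 change -0.13 ± 0.05, adjusted p = 0.0176. Its call ended without DMSO replicate 1, at -0.13, without DMSO replicate 3, at -0.12, and with the gene-span offset, at -0.060 (adjusted p from 0.00096 to 0.306 over the alternatives). The genes of this one complex thus spanned log2 changes between -0.65 and 0.25.

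Most eIF3 genes fell. Of the 14 genes of this complex 12 fell and 1 rose, 1 missed the threshold, and the log2 changes had a median of -0.37 and a standard deviation of 0.28 among them on the log2 scale. Summed over the 14 genes, the level was 3569 ± 99.3 CPM with CX-5461 and 4551 ± 25.4 CPM with DMSO (SD, n = 3 each). Eif3c (chromosome 7, 126546455 to 126566411), a subunit of the scaffold that binds the small ribosomal subunit and eIF1, had the highest mean count of the complex over the 6 libraries. Eif3c had 557, 553 and 563 CPM with CX-5461, against 897, 893 and 891 CPM with DMSO. No library of either group was more than a few CPM from its group mean, and the fall was 1.60-fold (log2 change -0.68 ± 0.04, adjusted p = 4.68e-10). Eif3a encodes the largest subunit, on which the complex is built. Eif3a had 623, 617 and 624 CPM with CX-5461, against 781, 809 and 806 CPM with DMSO. It was 1.29-fold lower (log2 change -0.36 ± 0.04, adjusted p = 8.03e-07), again with groups far apart.

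Eif3j1 and Eif3j2 both encode eIF3j, a loosely bound subunit at the decoding centre, and Eif3j2 on chromosome 18 is annotated without an intron. Eif3j2 had 37.4, 34.3 and 38.1 CPM with CX-5461, against 63.2, 67.5 and 66.1 CPM with DMSO. Eif3j1 had 28.3, 26.9 and 25.4 CPM with CX-5461, against 41.6, 46.0 and 45.2 CPM with DMSO. They had the largest falls of the complex, log2 change -0.84 ± 0.06, adjusted p = 3.87e-09 for Eif3j2 and log2 change -0.72 ± 0.07, adjusted p = 1.16e-07 for Eif3j1. Because most of Eif3j2 is identical to Eif3j1 transcripts, reads of the pair cannot be told apart over most of it. The count ratio of Eif3j2 to Eif3j1 overlapped between the groups.

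Among the other subunits that fell, log2 changes were smaller than those of Eif3c, and Eif3e changed by -0.61 ± 0.05, Eif3d, whose protein can itself bind caps in human cells, by -0.49 ± 0.04, Eif3g by -0.41 ± 0.05, Eif3m by -0.37 ± 0.05 and Eif3i by -0.32 ± 0.05. Their adjusted p-values ran from 4.84e-08 for Eif3d to 3.59e-05 for Eif3i. The opposite strand of Eif3d is covered by exons of Gm17638 over 43.3% of its exonic length, so its reads and those of Gm17638 cannot be told apart without strand. The same holds over 19.0% of Eif3j1 (Spg11) and 15.3% of Eif1ad (Banf1). Eif3h, Eif3f and Eif3k changed less, by -0.18 ± 0.04, -0.15 ± 0.05 and -0.15 ± 0.04. Eif3f lost its call without DMSO replicate 3, at -0.15, and without CX-5461 replicate 1, at -0.11, and with the gene-span offset, at -0.081 (adjusted p from 5.73e-05 to 0.127 over the alternatives). Eif3k lost it with that offset, at -0.066 (adjusted p from 0.000335 to 0.227 over the alternatives).

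Eif3l (chromosome 15, 79075179 to 79094405), whose protein sits beside eIF3k at the edge of the complex, was the eIF3 gene that rose. Eif3l had 289, 318 and 303 CPM with CX-5461, against 271, 273 and 286 CPM with DMSO. The lowest CX-5461 library stood just above the highest DMSO library, and the rise was 1.10-fold (log2 change 0.13 ± 0.05, adjusted p = 0.0173). It did not pass without DMSO replicate 1, at 0.11, without DMSO replicate 2, at 0.12, or with library totals as the only scaling, at 0.060 (adjusted p from 0.000147 to 0.245 over the alternatives). Eif3b, the subunit that anchors Eif3g and Eif3i proteins in the core, averaged 383 ± 9.13 CPM with CX-5461 and 386 ± 8.0 CPM with DMSO (SD, n = 3 each) and did not pass (log2 change -0.013 ± 0.04, adjusted p = 0.792). The 95% interval of its log2 change ran from -0.13 to 0.10.

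**Figure D2:**
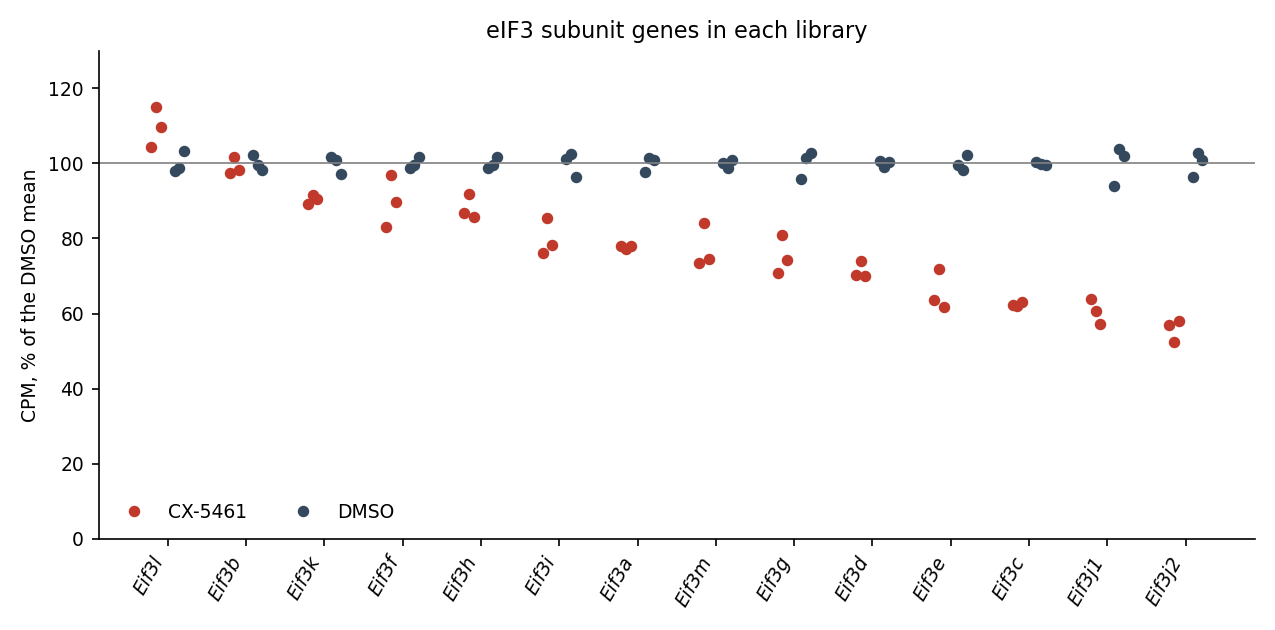
CPM of the 14 eIF3 genes in each library as a percentage of the gene's mean in DMSO, with CX-5461 libraries in red and DMSO libraries in dark grey, ordered by log2 change. The CX-5461 points step down from Eif3l, above 100%, to Eif3j2, below 60%.

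Per kilobase of exon, the eIF3 genes differed widely. With CX-5461 they ran from 4.61 CPM per kb for Eif3j1 to 200 CPM per kb for Eif3h, against 7.60 for Eif3j1 to 254 for Eif3c with DMSO. Eif3c stood above Eif3h with DMSO and below it with CX-5461, at 159 against 200 CPM per kb. These levels rest on the exons of all annotated transcripts and on how shared reads were counted.

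RefSeq promoter windows (GRCm38.p6) were at hand for 38 of the 50 genes, and the 250 bases before the start were searched on both strands for letters bound by known factor families. Where RefSeq lists several starts for a gene, the first listed was used, as for all genes. CCGGAAG, the core of ETS factor sites, was in 10 of 38 windows, or 26.3%, where 7.05% of all 27025 windows held it. CACGTG, the E-box bound by MYC and its relatives, was in 7 of 38, or 18.4%, where 6.05% of all windows held it. TGACGTCA, a cyclic AMP response element, and TGATGCAA, the core of the element bound by ATF4 with C/EBP factors, were in none of the 38 and in 1.62% and 0.818% of all windows. Counting a gene if any of its windows matched, CCGGAAG was before 12 of the 38 genes, or 31.6%, where 7.83% of all genes had it, with Eif4e2 and Eif5a added, and CACGTG before 9, or 23.7%, where 6.86% had it, with Eif4e and Eif5a added. None of these motifs contains another. The windows of the factors were richer in G and C, with a median of 60.2% against 52%, and the set of all windows holds genes of every kind. The ETS core was in 6 of 25 windows of genes that fell and in 1 of 5 of genes that rose.

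Of these 10 genes 5 encode eIF3 subunits, 4 that fell and the 1 that rose, and their windows show how near to the start the letters lie. Each is given 5′ to 3′ with the match to CCGGAAG or its reverse complement in capitals, and the matches lay 34 to 70 bases before the RefSeq start. GENCODE places the starts of Eif3c, Eif3g, Eif3l and Eif3m somewhat further upstream, inside these windows. By those starts the match of Eif3l and the nearer match of Eif3c lie inside the transcript, and the match of Eif3m crosses the start.
Eif3c, chr7:126566367-126566616, minus strand: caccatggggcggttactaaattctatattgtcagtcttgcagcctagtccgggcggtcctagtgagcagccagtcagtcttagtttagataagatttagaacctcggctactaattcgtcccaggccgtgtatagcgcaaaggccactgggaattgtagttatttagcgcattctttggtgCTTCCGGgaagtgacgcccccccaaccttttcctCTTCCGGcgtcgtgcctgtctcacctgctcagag
Eif3d, chr15:77970825-77971074, minus strand: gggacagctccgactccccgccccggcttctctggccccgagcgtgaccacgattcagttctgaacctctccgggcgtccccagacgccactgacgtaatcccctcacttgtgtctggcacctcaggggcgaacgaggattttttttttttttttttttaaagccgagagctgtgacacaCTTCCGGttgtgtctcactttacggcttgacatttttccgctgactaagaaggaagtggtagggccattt
Eif3g, chr9:20898591-20898840, minus strand: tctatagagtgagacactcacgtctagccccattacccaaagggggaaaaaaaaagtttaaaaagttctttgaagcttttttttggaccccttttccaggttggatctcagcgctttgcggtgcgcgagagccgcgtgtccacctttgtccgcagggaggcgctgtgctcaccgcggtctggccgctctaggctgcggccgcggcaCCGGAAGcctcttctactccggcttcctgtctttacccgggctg
Eif3m, chr2:105017028-105017277, minus strand: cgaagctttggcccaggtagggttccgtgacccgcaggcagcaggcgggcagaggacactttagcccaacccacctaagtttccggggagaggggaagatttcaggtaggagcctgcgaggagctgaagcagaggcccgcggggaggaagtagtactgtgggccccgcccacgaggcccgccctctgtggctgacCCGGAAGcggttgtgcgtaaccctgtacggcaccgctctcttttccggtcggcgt
Eif3l, chr15:79074973-79075222, plus strand: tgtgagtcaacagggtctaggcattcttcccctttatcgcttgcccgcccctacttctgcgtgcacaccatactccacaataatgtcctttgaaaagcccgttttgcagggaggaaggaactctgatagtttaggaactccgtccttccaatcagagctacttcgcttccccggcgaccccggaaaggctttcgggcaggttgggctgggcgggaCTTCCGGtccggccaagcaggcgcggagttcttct
The same letters thus stood before the RefSeq starts of Eif3c, lower by 0.68 on the log2 scale, and of Eif3l, higher by 0.13. A match is a description of the sequence and not a measured binding site.

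Within eIF4F and its helpers the genes went both ways. Of 11 tested, 6 fell, 3 rose and 2 missed the threshold, and the median was -0.20. That was 54.5% lower and 27.3% higher, beside 36.5% and 37.2% of all tested genes. The 3 that rose were Eif4g3, Eif4e3 and Eif4g1, and those that fell were Eif4a2, Eif4e, Eif4g2, Eif4h, Eif4b and Eif4a1.

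The eIF4G scaffolds parted from each other. Eif4g1 (chromosome 16, 20668313 to 20692884) encodes the main scaffold that joins eIF4E, eIF4A and eIF3. Eif4g1 had 941, 899.8 and 931 CPM with CX-5461, against 772, 773 and 759 CPM with DMSO. It rose 1.20-fold (log2 change 0.27 ± 0.04, adjusted p = 2.51e-05), with every CX-5461 library above every DMSO library. Eif4g3 (chromosome 4, 137993022 to 138208508), a related scaffold, had 220.2, 204 and 214 CPM with CX-5461, against 108, 104 and 107 CPM with DMSO. That rise of 2.00-fold (log2 change 1.00 ± 0.05, adjusted p = 3.19e-11) was the largest of the tested initiation factor genes without a correction for gene span. Eif4g3 spans 215487 bases, more than any other of the 50 genes, and with the gene-span offset its log2 change was 0.24 (adjusted p from 9.65e-71 to 0.000139 over the alternatives), below those of Eif4g1 (0.36), Eif4e3 (0.35), Eif2d (0.34) and Eif2b1 (0.32). Eif4g2 encodes DAP5, a scaffold that lacks the part binding eIF4E, and had the highest mean count of all 50 genes. Eif4g2 had 1063, 1038 and 1018 CPM with CX-5461, against 1279, 1306 and 1398 CPM with DMSO. It was 1.28-fold lower (log2 change -0.35 ± 0.05, adjusted p = 4.23e-06), without overlap.

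Cap-binding proteins also went different ways. Eif4e (chromosome 3, 138526179 to 138559696) encodes the canonical one. Eif4e had 56.3, 53.2 and 56.2 CPM with CX-5461, against 73.9, 77.7 and 77.7 CPM with DMSO. The CX-5461 libraries were all lower, by 1.38-fold (log2 change -0.47 ± 0.05, adjusted p = 7.32e-07). Eif4e3, a relative that binds caps with another contact, had 66.0, 68.1 and 66.9 CPM with CX-5461, against 53.4, 53.1 and 55.6 CPM with DMSO. Here the CX-5461 libraries were all higher, by 1.24-fold (log2 change 0.31 ± 0.05, adjusted p = 4.91e-05). Exons of Gm20696 on the same strand cover 14.8% of the exonic length of Eif4e3, so reads there cannot be assigned to 1 of these genes. Eif4e2, which encodes 4EHP, a cap-binding protein known as a repressor, averaged 103 ± 1.01 CPM with CX-5461 and 97.9 ± 3.13 CPM with DMSO (SD, n = 3 each). Its groups did not overlap, but it missed the threshold (log2 change 0.081 ± 0.05, adjusted p = 0.132). Under the offset for gene span it was called higher, at 0.16 (adjusted p from 0.00377 to 0.9 over the alternatives). Eif4e1b, an oocyte-type relative, had 1 count in CX-5461 replicate 1 and 0 in each of the other libraries, so it was not tested.

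The helicase genes and their cofactors were lower where they were called. Eif4a2, one of the related helicases of eIF4F, had 279, 299 and 278 CPM with CX-5461, against 386, 404 and 399 CPM with DMSO. It fell 1.39-fold (log2 change -0.47 ± 0.04, adjusted p = 1.14e-07), with no overlap. Eif4a1, the other helicase, had 101, 112 and 107 CPM with CX-5461, against 118, 126 and 124 CPM with DMSO. Its smaller fall passed as well (log2 change -0.20 ± 0.05, adjusted p = 0.00205), although its level is uncertain because of its pseudogene. Eif4b, a helicase cofactor gene, averaged 552 ± 14.9 CPM with CX-5461 and 692 ± 10.4 CPM with DMSO (SD, n = 3 each), with log2 change -0.33 ± 0.04, adjusted p = 3.64e-06. Eif4h, which encodes a related cofactor, averaged 361 ± 12.2 CPM with CX-5461 and 460.4 ± 7.88 CPM with DMSO (SD, n = 3 each), with log2 change -0.35 ± 0.04, adjusted p = 2.15e-06. Eif4a3, which encodes a helicase of the exon junction complex, averaged 98.3 ± 7.07 CPM with CX-5461 and 105 ± 1.95 CPM with DMSO (SD, n = 3 each), with log2 change -0.096 ± 0.05, adjusted p = 0.126. It passed as lower without CX-5461 replicate 2, at -0.16, and with library totals only, at -0.17 (adjusted p from 0.00245 to 0.829 over the alternatives).

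Eif4ebp1 (chromosome 8, 27260329 to 27276674) encodes 4E-BP1, which holds eIF4E away from eIF4G until mTORC1 phosphorylates it. Eif4ebp1 had 206, 215 and 213 CPM with CX-5461, against 382, 369.8 and 384 CPM with DMSO. The groups lay far apart, and the fall was 1.79-fold (log2 change -0.84 ± 0.04, adjusted p = 8.8e-11). This fall and that of Eif3j2 were the largest of the 47 genes and differed by less than their standard errors. Its relative Eif4ebp2 had 61.8, 52.4 and 62.2 CPM with CX-5461, against 55.2, 56.2 and 55.9 CPM with DMSO. CX-5461 replicate 2 lay below all DMSO libraries and the other CX-5461 libraries above them, so the groups overlapped (log2 change 0.078 ± 0.06, adjusted p = 0.289). Eif4ebp2 passed as higher without that replicate, at 0.15, and with the gene-span offset, at 0.17 (adjusted p from 0.0106 to 0.954 over the alternatives). Eif4enif1 encodes 4E-T, which carries eIF4E into the nucleus. Eif4enif1 had 98.5, 95.9 and 101 CPM with CX-5461, against 109, 110.1 and 107 CPM with DMSO. It fell slightly (log2 change -0.14 ± 0.05, adjusted p = 0.0113), and the call ended without DMSO replicate 2, at -0.14, and with the gene-span offset joined to the replicate number as a block, at -0.11 (adjusted p from 0.000651 to 0.0704 over the alternatives). Eif4ebp3 had 3 to 7 counts with CX-5461 and 1 to 6 with DMSO and was not tested.

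**Figure D3:**
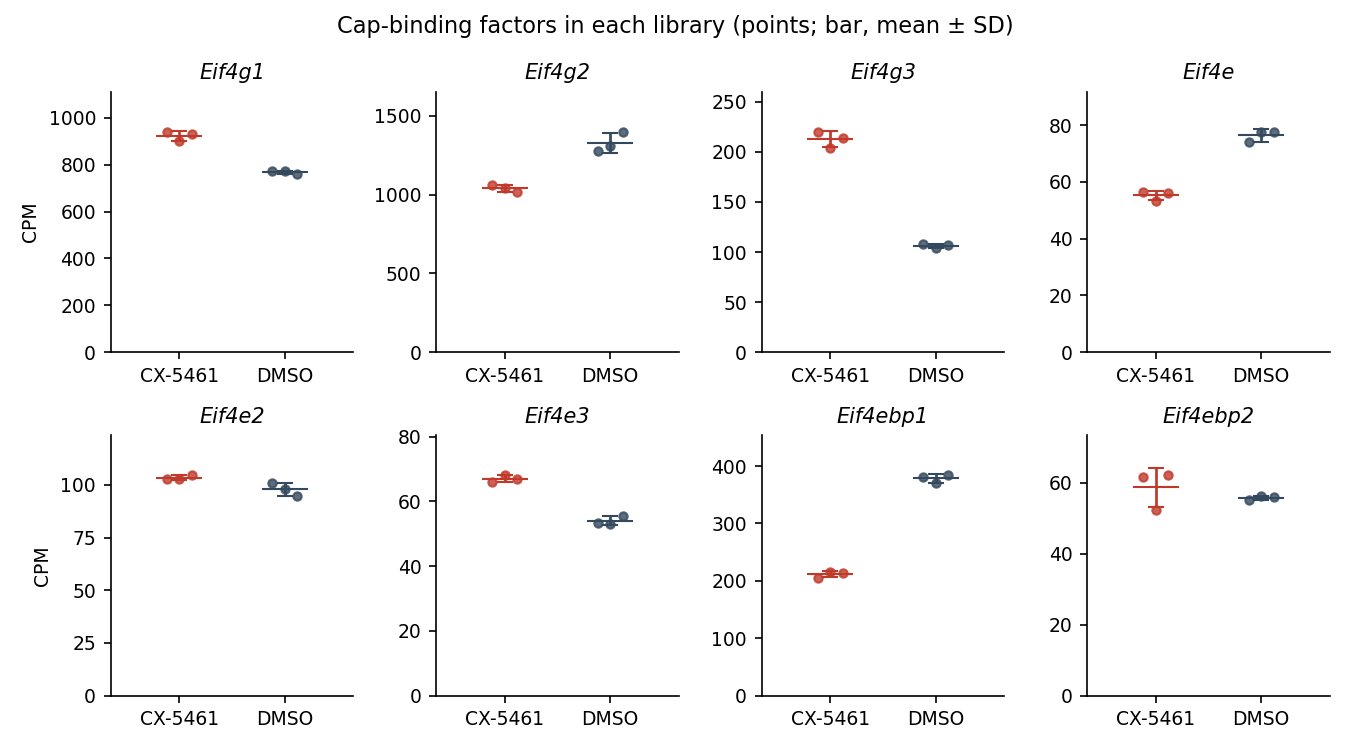
CPM (y axis, from 0) of 3 eIF4G genes, 3 cap-binding protein genes and 2 eIF4E-binding protein genes in each library, with CX-5461 left of DMSO; points are libraries and bars the mean ± SD (n = 3). Eif4g1, Eif4g3 and Eif4e3 are higher with CX-5461, and Eif4g2, Eif4e and Eif4ebp1 are lower.

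Among the remaining factors none of 10 rose, 7 fell and 3 missed the threshold, and the median was -0.24. That was 70% lower, beside 36.5% of all tested genes. Eif5 (chromosome 12, 111538016 to 111546752) makes eIF2 hydrolyse its GTP at the start codon. Eif5 had 540.5, 533 and 516 CPM with CX-5461, against 808, 844 and 848 CPM with DMSO. It fell 1.57-fold (log2 change -0.65 ± 0.04, adjusted p = 1.66e-09). Eif1 encodes the factor that keeps the scanning ribosome from starting at the wrong codon. Eif1 had 359, 394 and 348 CPM with CX-5461, against 509.9, 515 and 535 CPM with DMSO. Its fall was 1.42-fold (log2 change -0.50 ± 0.05, adjusted p = 2.02e-07). No CX-5461 library of either gene came near the lowest DMSO library.

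Eif6 encodes a protein that keeps the large ribosomal subunit from joining too early and takes part in its maturation. Eif6 had 125, 133 and 124 CPM with CX-5461, against 184, 188 and 183 CPM with DMSO. It was 1.45-fold lower (log2 change -0.54 ± 0.05, adjusted p = 3.94e-08). Eif5b, the gene of the GTPase that joins the subunits, had 234, 219 and 226 CPM with CX-5461, against 309.6, 308 and 292 CPM with DMSO. The groups did not overlap, and the fall was 1.34-fold (log2 change -0.42 ± 0.04, adjusted p = 5.44e-07), though exons of Rev1 on the opposite strand cover 16.9% of its exonic length. On the log2 scale Eif1ax and Eif1a, which both encode eIF1A, changed by -0.24 ± 0.06 and -0.13 ± 0.05, and Eif1ad, which encodes a protein with an eIF1A domain, by -0.25 ± 0.05. Eif1a lost its call without DMSO replicate 3, at -0.091, without CX-5461 replicate 3, at -0.12, and with the gene-span offset, at -0.032 (adjusted p from 0.00125 to 0.588 over the alternatives).

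The other genes of this group missed the threshold. Eif5a, whose hypusine-bearing product is known mainly for elongation, averaged 526 ± 3.48 CPM with CX-5461 and 546 ± 0.547 CPM with DMSO (SD, n = 3 each), with log2 change -0.053 ± 0.04, adjusted p = 0.23. It passed as lower with library totals only, at -0.13, and had the opposite sign with the gene-span offset, at 0.017 (adjusted p from 0.0083 to 0.749 over the alternatives). Eif5a2, its less abundant relative, averaged 21.3 ± 2.65 CPM with CX-5461 and 21.6 ± 2.25 CPM with DMSO (SD, n = 3 each), with log2 change -0.020 ± 0.10, adjusted p = 0.868 and a 95% interval from -0.30 to 0.26. Eif1b, a near relative of Eif1, averaged 39.1 ± 4.25 CPM with CX-5461 and 38.4 ± 0.255 CPM with DMSO (SD, n = 3 each), with log2 change 0.021 ± 0.07, adjusted p = 0.803, and CX-5461 replicate 2 alone stood above the DMSO libraries.

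Ratios of 2 related genes within a library do not depend on the scaling between libraries, but they can depend on gene span. Of 12 such ratios, 8 had groups that did not overlap, and each of these reached an exact two-sided permutation p of 0.1, the smallest that 3 against 3 can give (0.15 after adjustment over the 12 ratios). They are therefore given as values. Among single genes, 76.2% of all tested did not overlap between the groups. The share among other pairs of genes was not taken. The count ratio of Eif4g2 to Eif4g1 was 1.13, 1.15 and 1.09 in the CX-5461 libraries, against 1.66, 1.69 and 1.84 in the DMSO libraries. Every CX-5461 library thus lay below every DMSO library in this ratio, and the difference was 1.54-fold.

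For Eif4g3 to Eif4g1 the ratio was 0.234, 0.227 and 0.230 with CX-5461, against 0.140, 0.134 and 0.141 with DMSO, a 1.66-fold difference. With the gene-span offset of both genes this log2 difference of 0.74 turned to -0.12, the only sign among the 12 ratios that turned. For Eif4e3 to Eif4e it was 1.17, 1.28 and 1.19 with CX-5461, against 0.722, 0.684 and 0.716 with DMSO. Both ratios were thus higher in every CX-5461 library than in any DMSO library. The Eif4ebp2 to Eif4ebp1 ratio was 0.301, 0.243 and 0.291 with CX-5461, against 0.145, 0.152 and 0.146 with DMSO, a 1.88-fold difference. The ratio of Eif4e2 to Eif4e was 1.46-fold higher with CX-5461, and that of Eif1b to Eif1 was 1.44-fold higher. Eif4h and Eif4b kept an overlapping ratio, at 0.635, 0.678 and 0.650 with CX-5461 and 0.669, 0.646 and 0.683 with DMSO.

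**Figure D4:**
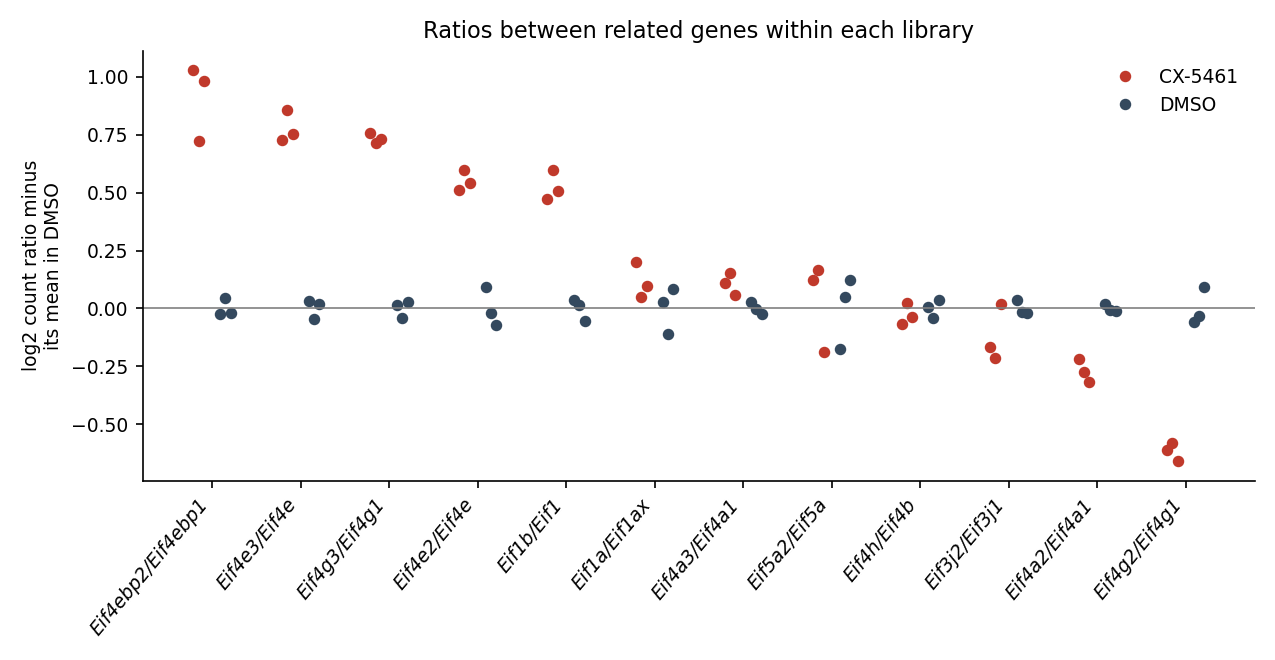
Log2 count ratio of 12 pairs of related genes in each library (red, CX-5461; dark grey, DMSO), minus the mean ratio of that pair in DMSO. The ratio of Eif4ebp2 to Eif4ebp1 shifts most, by 0.91, and Eif4g2 to Eif4g1 shifts down by 0.62.

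Changes over all tested genes went with gene span. The 3034 longest genes had a median log2 change of 0.29 and the 3035 shortest genes one of -0.069, and with the span offset these medians were -0.029 and 0.0066. Of the tested factors 4 were among those longest genes, with a median of -0.30, and 15 among the shortest, with a median of -0.32. The 4 differed widely, with Eif4g3 at 1.00, Eif3h at -0.18, Eif5b at -0.42 and Eif2b3 at -0.65, so their median says little about span. The 50 genes span between 1858 bases (Eif4ebp3) and 215487 bases (Eif4g3). With the span offset the median log2 change of the 47 tested genes was -0.24. Of the 6 genes that had risen, Eif2d, Eif2b1, Eif3l, Eif4e3 and Eif4g1 took larger values and Eif4g3 a smaller one, and all 6 were still called higher.

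**Figure D5:**
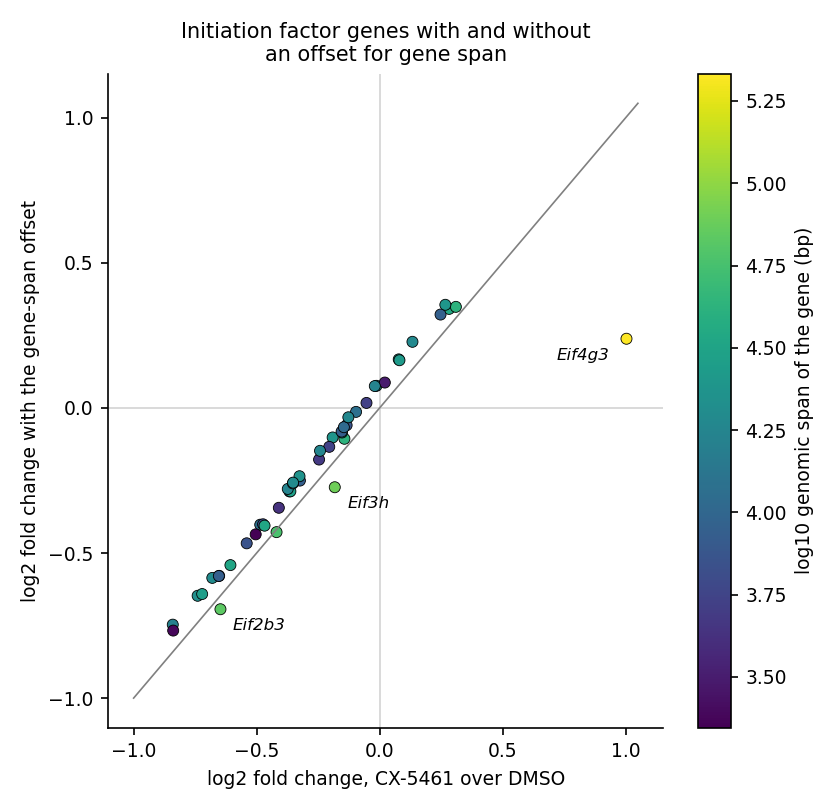
Log2 fold change of the 47 tested genes with the gene-span offset (y axis) against that without it (x axis), coloured by the log10 of the genomic span; the line marks equal values. Eif4g3, the longest gene, drops from the line to 0.24, and Eif2b3 and Eif3h also lie below it.

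Other genes of translation were taken from lists of factors that act with these, and the background for each is the 36.5% lower and 37.2% higher of all tested genes. The termination list held Etf1, Gspt1, Gspt2, Hbs1l and Pelo, the last 2 of which act on stalled ribosomes. All 5 genes fell, with a median of -0.39. However, Gspt2, which encodes a release factor GTPase, lost its call with the gene-span offset, at -0.18 (adjusted p from 0.00221 to 0.0705 over the alternatives). Etf1, which encodes the release factor that reads stop codons, had a log2 change of -0.58 ± 0.04 (adjusted p = 4.61e-09). Of 11 elongation genes 3 rose and 4 fell, 4 missed the threshold, and the median was -0.055. Among those that rose, Eef1a2 had 1, 1 and 3 counts with DMSO and averaged 1.02 CPM with CX-5461. Dohh rose with overlapping groups (log2 change 0.15 ± 0.06, adjusted p = 0.0474). Its call ended with library totals only, at 0.074, and without CX-5461 replicate 2, at 0.12 (adjusted p from 0.00377 to 0.317 over the alternatives). Eefsec, the elongation factor for selenocysteine, had a log2 change of 1.36 ± 0.05 (adjusted p = 1.65e-12), or 0.70 with the gene-span offset, and Eef1e1, a cofactor of aminoacyl-tRNA synthetases, changed by -0.57 ± 0.06 (adjusted p = 9.96e-07). Of 21 accessory factors tested, such as poly(A)-binding and recycling proteins, 3 rose and 9 fell, 9 missed the threshold, and the median was -0.057. Among those that rose, Gigyf2, whose protein acts with 4EHP, was at 0.20 ± 0.06 (adjusted p = 0.00834) but was called lower with the gene-span offset, at -0.14. Gigyf2 missed the threshold without CX-5461 replicate 1 and with library totals only, both at 0.13 (adjusted p from 1.64e-05 to 0.0739 over the alternatives). On the log2 scale the RNA helicase gene Dhx9 rose by 0.64 ± 0.05 (adjusted p = 8.66e-09), and Bzw2, which encodes an eIF5 mimic, changed by -0.72 ± 0.05 (adjusted p = 2.54e-09).

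A further list held mTORC1, its regulators and targets, and the eIF4E kinases. Of its 21 tested genes 9 rose and 7 fell, 5 missed the threshold, and the median was -0.0038. Those that fell were Ddit4, Larp1, Rheb, Rhebl1, Rps6kb1, Rps6kb2 and Tsc1, none of which encodes an mTORC1 subunit or an eIF4E kinase. The subunit genes Mtor, Rptor, Mlst8 and Akt1s1 and the kinase gene Mknk2 were among those that rose. The subunit gene Deptor and the kinase gene Mknk1 missed the threshold. With library totals only, 7 rose and 9 fell. With the gene-span offset Mtor, Rheb and Rps6kb2 lost their calls, at 0.089, -0.078 and -0.19 (adjusted p = 0.173, 0.131 and 0.0615). Deptor, not called before at -0.020, was called lower with that offset, at -0.48 (adjusted p = 1.88e-07). Rptor, the gene of the mTORC1 scaffold raptor, had a log2 change of 1.28 ± 0.07 (adjusted p = 3.89e-10), or 0.25 with the gene-span offset, and Rhebl1, a relative of the mTORC1 activator Rheb, changed by -0.65 ± 0.11 (adjusted p = 4.27e-05). Of 10 mitochondrial translation factor genes 3 rose, 4 fell and 3 missed the threshold, with Tsfm, an elongation factor partner, higher by 0.49 ± 0.08 (adjusted p = 7.33e-05) on the log2 scale and the GTPase gene Guf1 at -0.55 ± 0.05 (adjusted p = 1.44e-07). The eIF3, eIF2B and termination lists therefore had 85.7%, 80% and 100% of their tested genes lower without the gene-span offset. The share was 33.3% for the list of mTORC1, its regulators and targets, and the eIF4E kinases. Between these lay eIF2 with the factors that can act in its place (75%), the remaining factors (70%), the eIF4E-binding group (66.7%) and eIF4F (54.5%). Accessory (42.9%), mitochondrial (40%) and elongation genes (36.4%) were nearer to the 36.5% of all tested genes. With the gene-span offset Eif3f, Eif3k, Eif2b2, Eif2a, Eif2s3x, Eif1a and Gspt2 lost their calls. Of the eIF2 group only Eif2s2 was then still called lower. Differences between these shares were not tested.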

How the data were processed

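RNA of 6 libraries of B16 cells was measured. The deposited table holds whole-number counts per gene made by the authors, 1 column per library, and per the labels the processing notes name the builds GRCm38 and mm10. Not given in the sources used here are the aligner, counter, annotation, strand setting, read length and treatment of multiply mapped reads. Columns were tied to groups through the sample descriptions. Library totals of 17573990 to 22908309 counts put the floor of 3 counts at 0.135 to 0.173 CPM.

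Counts were filtered with filterByExpr (minimum count 10), scaled by TMM and fitted with treatment as the only term in edgeR 4.0.16 (quasi-likelihood F test, R 4.3.3), and p-values were Benjamini-Hochberg adjusted over 12198 genes. Standard errors were taken from the fit, and 95% intervals from them with a t quantile at 4 degrees of freedom. The scripts were tested on simulated counts with known changes. Alternatives were DESeq2 1.42.0, limma-voom 3.58.1, other scalings, filters and thresholds, a replicate block, a gene-span offset (the log2 deviation of each library smoothed over the GENCODE M21 span, since the table has no coordinates), and each library left out. Gene positions, exonic length and shared stretches came from GENCODE M21 (GRCm38), and promoter windows from RefSeq (GRCm38.p6).

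Members and lists were chosen with earlier results of these data known. Values in every library are given for the most abundant gene of each complex, up to 3 called genes with the largest rise and up to 3 with the largest fall in each, and a set of core factors (Eif4e, Eif4g1, Eif4a1, Eif4ebp1, Eif2s2, Eif2b5, Eif3a, Eif5, Eif5b and Eif6). Eif4ebp2 was added to these after its values were seen, as were Gspt2 and Gigyf2, the comparison of the longest and shortest genes, the motifs searched, the count over any promoter window of a gene and the gene-span offset of ratios. In the other lists the called genes with the largest rise and fall were named if they reached 5 CPM in the higher group.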

Additional observations from a re-analysis of the deposited data

How the results depend on the processing

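Across 18 alternatives, 32 initiation factor genes (27 lower, 5 higher) kept both call and direction, 8 called genes lost the call in at least 1 alternative, and 0 called genes changed sign. The number lower ranged from 27 to 36 and the number higher from 5 to 8. With library totals only, the median log2 change of the tested genes was -0.32, beside -0.079 for all tested genes. Leaving out 1 library at a time gave medians from -0.30, without CX-5461 replicate 2, to -0.23. Among the initiation factor genes, signs changed only for those that did not pass the test. Eif1b was at -0.052 with library totals only, and without 1 library it ranged from -0.072, without CX-5461 replicate 2, to 0.060. With the gene-span offset Eif3b was at 0.076, Eif5a at 0.017 and Eif5a2 at 0.075, and with the replicate block added they were at 0.076, 0.017 and 0.078. Without 1 library Eif5a2 ranged from -0.10 to 0.074. With the gene-span offset, Gigyf2 of the accessory factors was at -0.14, and at -0.14 with the block added, and the Eif4g3 to Eif4g1 log2 ratio changed by -0.12. The cause of these changes was not tested.

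Replicate numbers did not pair the samples: deviations of same-numbered libraries correlated at 0.036, 0.0037 and -0.0084, and only those numbered 1 correlated best with their own number. With the replicate number as a block, 34 genes were lower and 6 higher, with a median of -0.25. Eif2s3y, Eif4e1b and Eif4ebp3 had too few counts to be tested. Other limits are that the identity of the reads shared with related loci is unknown, that the scaling is relative, and that 3 libraries per group do not allow an exact permutation p below 0.1.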
